A study of Homo sapiens with 3 samples.

Results

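The SLC25 family is the set of carrier proteins that move metabolites across the inner membrane of mitochondria, with a few members in other membranes. Each carrier alternates between an outward-open and an inward-open state and usually exchanges one substrate for another, so the family links the pathways of the matrix with those of the cytosol. In proliferating epithelial cells these exchanges serve ATP export, the supply of citrate for lipid synthesis, the malate-aspartate shuttle, amino acid use and the delivery of cofactors, glutathione and iron to the matrix. The members were taken from the deposited expression table as every gene row whose name begins with SLC25A, leaving out rows annotated to the pathway Oxidative phosphorylation. That gave 47 rows of 15625, and 0 rows were lost to the pathway condition. Within the family the name chose the rows, not their values, but the family itself was chosen with earlier results of these data known. Family members with other names, such as UCP2 and MTCH2, are therefore not counted among the 47.

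Messenger RNA was measured in HCT116, a human colorectal cancer cell line that grows as epithelium. There were 2 libraries of cells given shRNA against circRAPGEF5, a circular RNA, and 1 library of cells given a control shRNA (sh_control). All 3 libraries carry the genotype label MT, which the labels do not explain, and all received an shRNA system from the same supplier and were collected after 36 or 48 h. The time of each library is not labelled, and neither is whether the knockdown libraries come from different hairpins or cultures. The p-values below therefore rest on the spread between the 2 knockdown libraries, possibly a technical one. For each gene that spread is taken mostly over all genes and only in small part from the gene itself. The p-values hold no measured spread of the control. The series title places the study in RAS/RAF/MEK/ERK signaling. The circular RNA itself is not a row of the table, so the files give no check of its knockdown.

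Levels are in FPKM, a unit that divides the fragments of a gene by its length and by the size of the library, so they can be compared between genes. The smallest whole reads that give the ratios between libraries summed to 14832142 and 15758794 in the knockdown libraries and to 14632390 in the control. The epithelial keratin gene KRT8 was at 1084 and 1694 FPKM in the knockdown libraries and at 1031 FPKM in the control, and KRT18 was at 652 and 885 FPKM against 478. EPCAM was at 170.0 and 191 FPKM against 176, with the control between the knockdown libraries, and CDH1, the epithelial cadherin, was below the control in both, at 20.3 and 26.7 FPKM against 33.1. VIL1, a gene of the intestinal brush border, was at 0 in both knockdown libraries and at 0.00944 FPKM in the control. The leukocyte markers found in the table summed to 0.119 and 0.548 FPKM against 0.768, and the endothelial ones to 0.180 and 0.0453 FPKM against 0.216. Of the fibroblast markers, COL1A1 was at 4.64 and 8.38 FPKM against 13.4, while PDGFRB was at most 0.0856 FPKM. The part of these markers in the results below was not tested, and in bulk RNA fewer cells of a type and less RNA per cell cannot be told apart.

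Of the 47 carriers, 38 had a mean of at least 1 FPKM over the 3 libraries and entered the test, with 11216 genes in all. For these, differences are given on the log2(FPKM + 1) scale as knockdown minus control, which understates the change of genes at low levels. The test was limma, fitted over all genes. Its p-values were adjusted by Benjamini-Hochberg over the 11216 genes and called below 0.05. It called 0 of the 38 carriers, and 2 of them, SLC25A39 and SLC25A23, had an unadjusted limma p below 0.05. Over all genes tested 0.0178% were called higher and 0% lower, and 3.99% were lower with an unadjusted p below 0.05. The control is 1 library and has no SD, and the test assumes that it varies like the knockdown libraries. A carrier that missed the threshold is therefore not shown to be equal between the groups. Both knockdown libraries are compared with the same control library, so lying on the same side of it in both is not 2 independent results.

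The family had no common direction. Of the 38 carriers, 15 (39.5%) lay above the control in both knockdown libraries, against 31.7% of all genes tested. Another 12 (31.6%) lay below it in both, against 37.6% of all genes, and 11 (28.9%) lay on opposite sides, against 30.7%. The 12 include SLC25A6-2, a second row of the gene SLC25A6, which is no measure of the level of that gene. The median log2 difference of the carriers was -0.02, at 0.22 in knockdown library 1 and -0.04 in library 2, and that of all genes tested was -0.05. With the carriers at a mean of at least 5 FPKM, 14 of 29 lay above the control in both libraries and 7 below it in both. The shares of all genes at that level are not given here, so these counts are a description. The median of these carriers was 0.266, against 0.0196 for all genes at that level. Over the 38 the median turned to 0.066 with median-ratio rescaling and to 0.144 with quantile normalization, where that of all genes was 0.0323 and 0.0099. At 1.5-fold or more in both libraries, 5 carriers lay below the control (13.2%, against 7.4% of all genes) and 1 above it (2.63%, against 5.52%). The 5 were SLC25A39, SLC25A23, SLC25A27, SLC25A35 and SLC25A40, and the 1 was SLC25A20. SLC25A35 passed the filter on low values through its control level alone, so it had to lie below the control, and the count and share of those below are a description. The counts past 1.5-fold were small and moved with the settings, to 2 below and 0 above with a pseudocount of 5, and to 2 below and 3 above with quantile normalization.

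**Figure D1:**
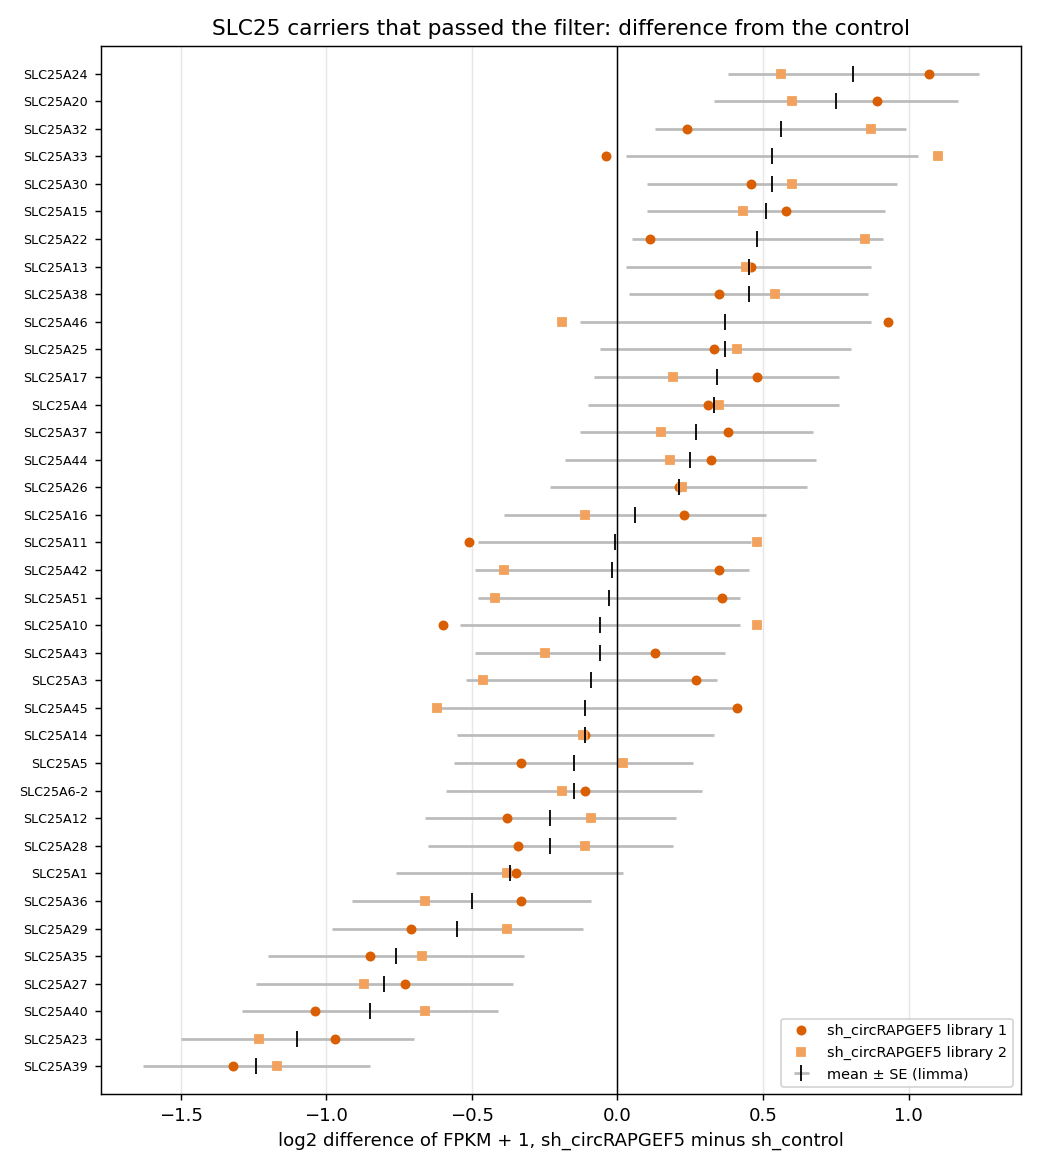
Log2 difference of FPKM + 1 between each sh_circRAPGEF5 library and the sh_control library (horizontal axis) for 37 of the 38 carriers that passed the filter, ordered by their mean. The circles are knockdown library 1, the squares library 2, and the black tick with a grey bar is the mean ± SE from limma. SLC25A39 (-1.24) stands at the bottom and SLC25A24 (0.81) at the top, and the symbols of 11 carriers, among them SLC25A33 and SLC25A46, lie on both sides of 0.

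By level the family was led by a few genes. In the control, 3 carriers were at 100 FPKM or more, 6 between 20 and 100, 20 between 5 and 20, 9 between 1 and 5, and 9 below 1. The 3 were SLC25A5, SLC25A39 and SLC25A3, which together held 51.5% and 50.02% of the family's summed FPKM in the knockdown libraries and 60.2% in the control. The summed FPKM of all 47 was 874 and 931 in the knockdown libraries and 1055 in the control. Without SLC25A39 the sum was 772 and 819 FPKM against 799, so the knockdown libraries then lay on both sides of the control. SLC25A39 alone made 11.7% and 12.1% of the family sum in the knockdown libraries and 24.2% in the control.

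**Figure D2:**
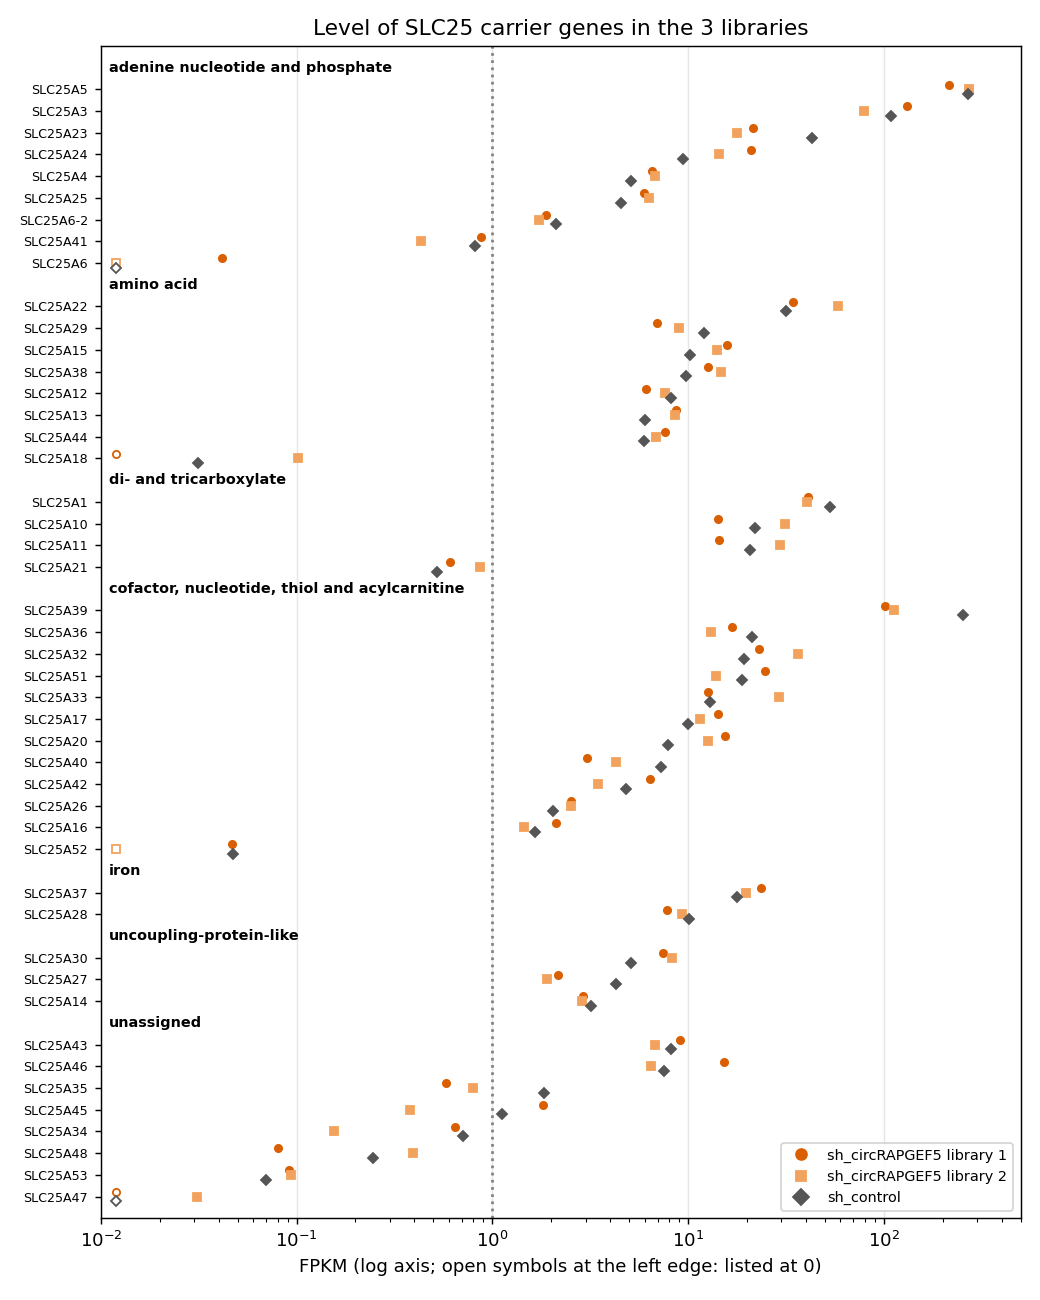
FPKM of 46 of the 47 SLC25A rows on a log axis, grouped by the substrates of the carriers and ordered by level in the control. The circles are sh_circRAPGEF5 library 1, the squares library 2 and the diamonds sh_control, open symbols at the left edge are values listed at 0, and the dotted line is 1 FPKM. SLC25A5 leads at 271 FPKM in the control, and the symbols of SLC25A39 show the control at 256 FPKM, to the right of the knockdown libraries.

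SLC25A39 (Entrez 51629, GRCh38 chromosome 17, 44319625 to 44324870) is required for the import of glutathione, the main thiol antioxidant, into mitochondria. It was at 102 and 113 FPKM in the knockdown libraries, a mean of 107 ± 7.57 (SD, n = 2), and at 256 FPKM in the control. It was the only carrier at least 2-fold below the control in both libraries (2.63% of the 38, against 1.7% of all genes), and 0 were 2-fold above it (1.21% of all genes). The log2 difference was -1.24 ± 0.39 (SE), with an unadjusted limma p of 0.00831 and an adjusted p of 0.551. The value rested on at least 2669, 3127 and 6592 reads in the same order of libraries. SLC25A39 has 2 named pseudogenes in GENCODE 29, and reads may be shared with them. Its paralog SLC25A40 (chromosome 7, 87833568 to 87876357), which acts in the same import, was at 3.03 and 4.26 FPKM in the knockdown libraries and at 7.29 FPKM in the control. Its log2 difference was -0.85 ± 0.44 (SE, limma adjusted p 0.756). Both glutathione carriers thus lay below the control in both libraries, and SLC25A40 stayed at 0.0297 and 0.0378 of the level of SLC25A39 in the knockdown libraries and at 0.0285 in the control. Exons of SLC25A40 overlap those of DBF4 on the other strand, which was at 8.12 and 19.7 FPKM against 14.2, on both sides of its control value.

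The promoters of SLC25A39, SLC25A23 and SLC25A24 are shown because these genes had the lowest, the second lowest and the highest mean difference of the family. Each stretch is the 250 bases before the RefSeq start of the gene on GRCh38.p14, written 5′ to 3′ on the strand of the gene. Capitals mark matches to TGACNNNGC (the core of the antioxidant response element), CCAAT (the box bound by NF-Y), CACGTG (an E-box) or TGATGNAAN (a C/EBP-ATF response element), searched on both strands.
SLC25A39 (chr17:44324824-44325073, minus strand): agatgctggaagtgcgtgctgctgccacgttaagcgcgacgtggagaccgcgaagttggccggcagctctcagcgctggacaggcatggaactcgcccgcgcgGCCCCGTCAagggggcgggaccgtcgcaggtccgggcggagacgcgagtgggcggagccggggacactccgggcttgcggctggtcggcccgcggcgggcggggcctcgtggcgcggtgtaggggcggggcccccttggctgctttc
SLC25A23 (chr19:6459793-6460042, minus strand): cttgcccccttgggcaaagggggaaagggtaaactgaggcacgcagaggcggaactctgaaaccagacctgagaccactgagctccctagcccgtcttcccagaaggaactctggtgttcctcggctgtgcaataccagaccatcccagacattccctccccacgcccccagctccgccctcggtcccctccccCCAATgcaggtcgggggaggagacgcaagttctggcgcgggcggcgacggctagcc
SLC25A24 (chr1:108200344-108200593, minus strand): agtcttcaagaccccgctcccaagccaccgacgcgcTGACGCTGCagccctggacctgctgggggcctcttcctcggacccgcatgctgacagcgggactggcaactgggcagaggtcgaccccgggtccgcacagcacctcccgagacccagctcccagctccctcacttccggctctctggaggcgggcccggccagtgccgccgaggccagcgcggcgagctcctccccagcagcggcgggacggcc
The capitals are a match to TGACNNNGC on the reverse strand in SLC25A39, CCAAT in SLC25A23 and TGACNNNGC on the forward strand in SLC25A24. The RefSeq start of each of the 3 lies inside the GENCODE gene, whose coordinates reach further upstream, so other starts may be in use. The 25 bases after the RefSeq start were found in 6 GENCODE transcripts of SLC25A39, 0 of SLC25A23 and 2 of SLC25A24. GC content was 74% in SLC25A39, 64.4% in SLC25A23 and 72.8% in SLC25A24.

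Over promoters reaching 250 bases before and 50 after the start, 39 of the 47 rows matched an entry in the RefSeq table. The 39 include carriers below the filter, among them SLC25A21, SLC25A34 and SLC25A53, whereas the shares of all genes are over tested genes only. TGACNNNGC was in 7 of the 39 (17.9%), against 15.3% of the 9237 matched promoters of all genes tested. CACGTG was in 6 (15.4%, against 10.5%), in SLC25A33, SLC25A38, SLC25A36, SLC25A46, SLC25A13 and SLC25A51. Of these, SLC25A38 and SLC25A13 lay above the control in both libraries, SLC25A36 below it in both, and the other 3 on opposite sides. CCAAT was in 19 (48.7%, against 37.2%), 5 of the 11 matched carriers above the control in both libraries and 7 of the 11 below it in both. TGATGNAAN was in SLC25A11 alone, 2.56% against 1.55%. These are matches of letters in the window and not measured binding.

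The adenine nucleotide and phosphate carriers supply the matrix with ADP and phosphate and release ATP. Of 7 tested, 3 lay above the control in both knockdown libraries, 2 below it in both and 2 on opposite sides, and 0 passed the test. SLC25A5, the ADP/ATP carrier of dividing cells, was at 216 and 274 FPKM in the knockdown libraries and at 271 FPKM in the control. SLC25A4, the ADP/ATP carrier of heart and muscle, was at 6.58 and 6.76 FPKM against 5.10. The phosphate carrier SLC25A3 was at 132 and 78.9 FPKM against 109. SLC25A5 and SLC25A3, the most abundant of the group, thus each had the control between their knockdown values, but with quantile normalization SLC25A5 lay below it in both libraries (-0.42 and -0.11). SLC25A5 has 9 named pseudogenes and SLC25A3 has 2 in GENCODE 29. In all, 14 members have such copies, among them SLC25A1 and SLC25A15 with 5 each and SLC25A39 and SLC25A24 with 2 each. Reads may be shared with the copies, so the levels of these members are uncertain.

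The third ADP/ATP carrier, SLC25A6, has a copy on chromosome X and one on chromosome Y and is listed in 2 rows. The row SLC25A6 was at 0.0417 FPKM in knockdown library 1, which is 1 read, and at 0 in library 2 and in the control. The row SLC25A6-2 was at 1.88 and 1.73 FPKM in the knockdown libraries and at 2.11 FPKM in the control, and its direction turned with quantile normalization, to 0.11. Its reads can fall on either copy, so neither row is a measure of the level of the gene.

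The carriers that exchange ATP-Mg for phosphate set the size of the adenine nucleotide pool in the matrix, and SLC25A23, SLC25A24 and SLC25A25 bind calcium. They differed in direction. SLC25A23 (Entrez 79085, chromosome 19, 6436079 to 6465203) was at 21.5 and 17.7 FPKM in the knockdown libraries, a mean of 19.6 ± 2.65 (SD, n = 2), and at 43.01 FPKM in the control. Its log2 difference was -1.10 ± 0.40 (SE), with an unadjusted limma p of 0.0177 and an adjusted p of 0.614. SLC25A24 (Entrez 29957, chromosome 1, 108134036 to 108200849) was at 20.9 and 14.4 FPKM in the knockdown libraries, a mean of 17.6 ± 4.61 (SD, n = 2), and at 9.45 FPKM in the control. Its log2 difference was 0.81 ± 0.43 (SE, limma adjusted p 0.756). SLC25A25 was at 5.94 and 6.34 FPKM against 4.53, a log2 difference of 0.37 (limma adjusted p 0.909). Within each library the FPKM of SLC25A24 was 0.973 and 0.811 of that of SLC25A23 in the knockdown libraries and 0.220 of it in the control. The ratio of SLC25A25 to SLC25A23 was 0.277 and 0.358 against 0.105. SLC25A41, the relative without calcium binding and the neighbour of SLC25A23 on chromosome 19, was at 0.880 and 0.431 FPKM against 0.820 and was below the filter. These ratios, and those below, were chosen after the values were seen and have no test.

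**Figure D3:**
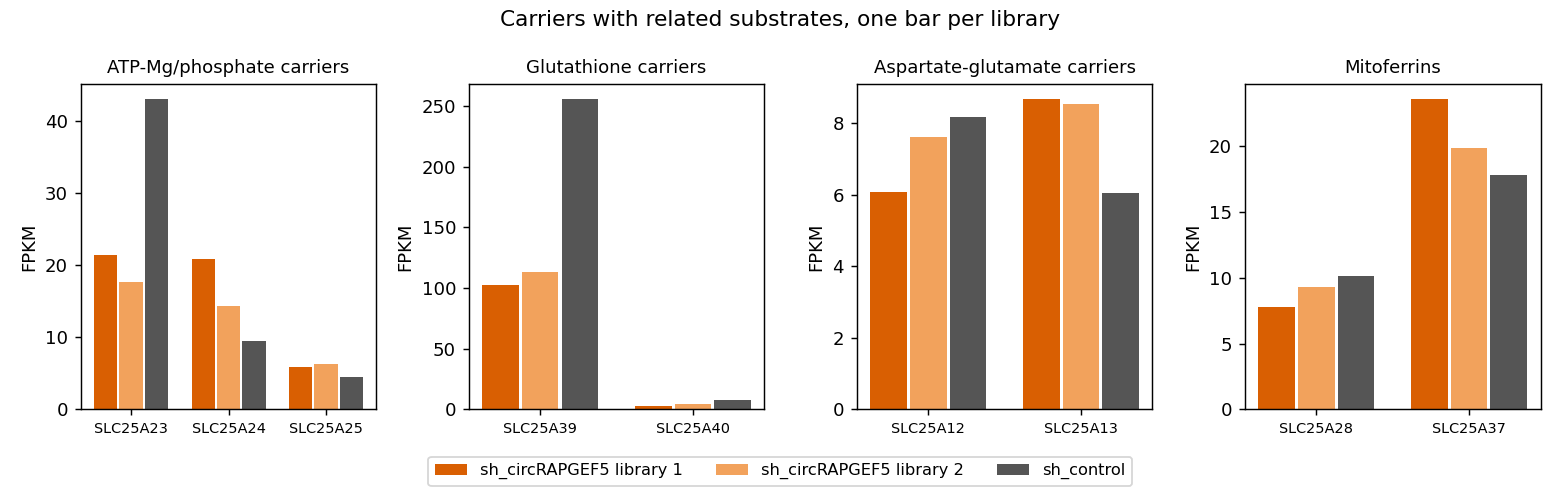
FPKM (vertical axis, from 0) of carriers that share a substrate, with a bar for each library: sh_circRAPGEF5 library 1, library 2 and sh_control from left to right. The control bar is the tallest for SLC25A23 (43.01 FPKM), SLC25A39 (256), SLC25A40 (7.29), SLC25A12 (8.17) and SLC25A28 (10.1). It is the shortest for SLC25A24 (9.45), SLC25A25 (4.53), SLC25A13 (6.03) and SLC25A37 (17.8).

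The amino acid carriers had a median log2 difference of 0.45, with 0.32 in library 1 and 0.43 in library 2. Of 7 tested, 5 lay above the control in both knockdown libraries and 2 below it in both, where 31.7% and 37.6% of all genes did, and 0 passed the test. SLC25A22, a glutamate carrier, was at 34.4 and 58.2 FPKM in the knockdown libraries and at 31.8 FPKM in the control. The ornithine carrier SLC25A15 was at 15.8 and 14.1 FPKM against 10.2, a log2 difference of 0.51 ± 0.41 (SE, limma adjusted p 0.854). SLC25A38, which imports glycine for heme synthesis, was at 12.7 and 14.7 FPKM against 9.75 (0.45, limma adjusted p 0.875). For these 3 genes both knockdown libraries stood above the control, SLC25A22 by little in library 1. SLC25A44, which carries branched-chain amino acids, was at 7.66 and 6.88 FPKM against 5.96. On the other side, SLC25A29, a carrier of lysine and arginine, was at 6.98 and 9.04 FPKM against 12.1, a log2 difference of -0.55 ± 0.43 (SE, limma adjusted p 0.85). SLC25A18, the other glutamate carrier, rested on 0 and 7 reads in the knockdown libraries and 2 in the control.

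The aspartate-glutamate carriers SLC25A12 and SLC25A13, which belong to the malate-aspartate shuttle, lay on opposite sides of the control. SLC25A12 was at 6.07 and 7.62 FPKM in the knockdown libraries and at 8.17 FPKM in the control. SLC25A13 was at 8.67 and 8.53 FPKM against 6.03, a log2 difference of 0.45 ± 0.42 (SE, limma adjusted p 0.877). The FPKM of SLC25A13 was 1.43 and 1.12 times that of SLC25A12 in the knockdown libraries and 0.738 times in the control, so the more abundant of the pair was SLC25A13 in both knockdown libraries and SLC25A12 in the control. Exons of SLC25A12 overlap METAP1D on the other strand, at 13.9 and 11.6 FPKM against 8.75.

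Of the di- and tricarboxylate carriers, SLC25A10 and SLC25A11 had the control between their knockdown libraries and SLC25A1 lay below it in both. The dicarboxylate carrier SLC25A10 was at 14.3 and 31.1 FPKM in the knockdown libraries and at 22.1 FPKM in the control. SLC25A11, which exchanges oxoglutarate for malate, was at 14.4 and 29.4 FPKM against 20.8. For both genes library 1 was the lowest and library 2 the highest of the 3, with log2 differences of -0.60 and 0.48 for SLC25A10 and -0.51 and 0.48 for SLC25A11. Exons of SLC25A11 overlap RNF167 on the other strand, at 38.4 and 35.2 FPKM against 28.6. The citrate carrier SLC25A1, which feeds cytosolic acetyl-CoA, was at 41.3 and 40.3 FPKM against 52.96, a log2 difference of -0.37 ± 0.39 (SE, limma adjusted p 0.892). SLC25A21, the oxodicarboxylate carrier, was at 0.610 and 0.869 FPKM against 0.521 and was below the filter.

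The carriers of cofactors, nucleotides, thiols and acylcarnitines lay on both sides of the control, with 12 tested, 5 above the control in both libraries, 3 below it in both and 4 on opposite sides. SLC25A20, which exchanges carnitine for acylcarnitine and admits fatty acids to oxidation, was at 15.5 and 12.6 FPKM in the knockdown libraries, a mean of 14.1 ± 2.08 (SD, n = 2), and at 7.94 FPKM in the control. Its log2 difference was 0.75 ± 0.42 (SE, limma adjusted p 0.772), on at least 228, 196 and 115 reads. Both knockdown libraries stood above the control for SLC25A20. SLC25A32, which carries folate and FAD, was at 23.1 and 36.3 FPKM against 19.4, with exons that overlap DCAF13 on the other strand (83.9 and 94.96 FPKM against 53.2). SLC25A17, a peroxisomal carrier of coenzyme A and other cofactors, was at 14.3 and 11.5 FPKM against 9.96. SLC25A26, which imports S-adenosylmethionine, was at 2.52 and 2.54 FPKM against 2.04.

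Besides SLC25A39 and SLC25A40, the pyrimidine nucleotide carrier SLC25A36 lay below the control in both libraries, at 16.7 and 13.1 FPKM against 21.3, a log2 difference of -0.50 ± 0.41 (SE, limma adjusted p 0.857). The other pyrimidine nucleotide carrier, SLC25A33, was at 12.6 and 29.02 FPKM against 12.98, high in knockdown library 2 alone, and above the control in both libraries with median-ratio rescaling (0.05 and 1.18). The NAD+ carrier SLC25A51 was at 24.6 and 13.9 FPKM against 18.97, and its close copy SLC25A52 was at 0.0467 and 0 FPKM against 0.0473. Reads can be shared between these 2 genes, so their levels are uncertain. The coenzyme A carrier SLC25A42 was at 6.41 and 3.45 FPKM against 4.82 and SLC25A16 at 2.11 and 1.45 FPKM against 1.65, each with the control between the knockdown libraries. With quantile normalization SLC25A16 lay above it in both (0.54 and 0.12).

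The mitoferrins SLC25A37 and SLC25A28, which bring iron to the matrix for heme and iron-sulfur clusters, lay on opposite sides of the control. SLC25A37 was at 23.6 and 19.9 FPKM in the knockdown libraries and at 17.8 FPKM in the control. SLC25A28 was at 7.79 and 9.28 FPKM against 10.1. Mitoferrin 1, SLC25A37, was at 3.03 and 2.14 times the level of mitoferrin 2 in the knockdown libraries and at 1.76 times in the control. Neither gene passed the test, with log2 differences of 0.27 and -0.23 and limma adjusted p of 0.933 and 0.945.

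Of the carriers related to uncoupling proteins, SLC25A27 was at 2.17 and 1.89 FPKM in the knockdown libraries and at 4.28 FPKM in the control. Its log2 difference was -0.80 ± 0.44 (SE, limma adjusted p 0.763), on at least 53, 49 and 103 reads. SLC25A30 was on the other side, at 7.46 and 8.33 FPKM against 5.14, a log2 difference of 0.53 ± 0.43 (SE, limma adjusted p 0.853). SLC25A14 was at 2.90 and 2.86 FPKM against 3.19, and its mean difference of -0.11 turned to 0.10 with quantile normalization.

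The carriers without an assigned role here were mostly weakly expressed, with 4 of 8 above the filter. SLC25A35 was at 0.582 and 0.794 FPKM in the knockdown libraries and at 1.85 FPKM in the control, a log2 difference of -0.76 ± 0.44 (SE, limma adjusted p 0.787). It passed the filter through its control value, and its exons overlap RANGRF on the other strand, which was at 12.5 and 11.1 FPKM against 19.9. SLC25A46, an outer membrane protein that acts in mitochondrial fission and fusion, was at 15.2 and 6.48 FPKM against 7.50, high in knockdown library 1 alone. SLC25A43 was at 9.06 and 6.75 FPKM against 8.21, and SLC25A45 at 1.82 and 0.378 FPKM against 1.12, each with the control in between. Of those below the filter, SLC25A34 was at 0.644 and 0.155 FPKM against 0.709, SLC25A48 at 0.0806 and 0.395 against 0.245, and SLC25A53 at 0.0916 and 0.0935 against 0.0696. SLC25A47 was at 0, 0.0310 and 0 FPKM in the same order, which is 1 read in all.

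The knockdown libraries also differed from each other. Library 1 minus library 2 on the log2 scale was -1.14 for SLC25A33, -1.07 for SLC25A10, -0.99 for SLC25A11, -0.74 for SLC25A22 and -0.63 for SLC25A32. It was 1.12 for SLC25A46, 1.03 for SLC25A45, 0.78 for SLC25A51, 0.74 for SLC25A42 and 0.73 for SLC25A3. For SLC25A39 it was -0.14 and for SLC25A23 0.26, which is small beside their differences from the control. This gap says nothing of the spread of the control, and both genes were picked for their large differences.

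The genes that work with the carriers were described from lists chosen by function, by the same counts. The shares of all genes tested to read each list against are 31.7% above the control in both libraries and 37.6% below it in both, with a median of -0.05. Import factors bring the carriers from the cytosol to the inner membrane, and 10 of 13 tested lay above the control in both knockdown libraries, 2 below it in both, with a median log2 difference of 0.44. The receptor TOMM70, which binds carrier precursors, was at 43.2 and 48.9 FPKM in the knockdown libraries and at 20.2 FPKM in the control (1.15 ± 0.39, SE, limma adjusted p 0.585). The receptor TOMM20 was at 112 and 71.0 FPKM against 52.9, and the pore TOMM40 at 109 and 156 FPKM against 81.0. Both knockdown libraries stood above the control for all 3. Of the other transport proteins of mitochondrial membranes, 8 of 13 lay above and 2 below in both libraries, with a median of 0.30. The serine carrier SFXN1 was at 58.5 and 51.96 FPKM against 24.1 (1.16 ± 0.39, SE, limma adjusted p 0.58), while SFXN2 was at 1.98 and 2.45 FPKM against 4.84 and SFXN5 at 2.83 and 3.08 against 4.81.

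Of the malate-aspartate shuttle and glutamate enzymes, 4 of 6 lay above the control in both libraries and 1 below, with a median log2 difference of 0.35. Cytosolic malate dehydrogenase, MDH1, was the one below, at 90.1 and 57.8 FPKM in the knockdown libraries and 127 FPKM in the control, while the mitochondrial MDH2 was at 166 and 173 FPKM against 124. Citrate and dicarboxylate enzymes were divided, 6 above and 6 below of 16, with a median of -0.01 (0.18 by library 1 alone, -0.07 by library 2 alone). ACLY, which splits exported citrate, was at 81.8 and 122 FPKM against 53.8, while SUCLG2, a succinyl-CoA ligase subunit, was at 5.64 and 11.6 FPKM against 23.9 and IDH1 at 7.02 and 36.1 FPKM against 54.9. For IDH1 knockdown library 1 stood far below library 2, and both stood below the control.

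Folate and one-carbon enzymes had a median of -0.28 (-0.51 by library 1 alone, -0.17 by library 2 alone), with 1 of 8 above the control in both libraries and 4 below. The mitochondrial serine enzyme SHMT2 was at 57.0 and 52.9 FPKM in the knockdown libraries and 92.5 FPKM in the control. The cytosolic MTHFD1 was on the other side, at 57.9 and 71.7 FPKM against 36.9. Heme and iron-sulfur genes had a median of 0.05 (0.14 by library 1 alone, 0.09 by library 2 alone), 8 of 17 above and 4 below. ALAS1, the first enzyme of heme synthesis, was at 54.1 and 71.6 FPKM against 30.9, the scaffold ISCU at 35.4 and 32.7 against 20.1, and CPOX, a later heme enzyme, at 78.7 and 63.2 against 123. The list thus held genes on both sides of the control.

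Carnitine and fatty acid oxidation genes had a median log2 difference of -0.30 (-0.18 by library 1 alone, -0.36 by library 2 alone). Of 12, 2 lay above the control in both libraries and 7 below it in both. The carrier SLC25A20 lay above it in both, as those 2 did. ACADS, a short-chain acyl-CoA dehydrogenase, was at 4.81 and 4.37 FPKM in the knockdown libraries and 11.7 FPKM in the control, HADH at 7.03 and 11.6 against 15.98, and CPT1B at 22.1 and 4.55 against 22.6. For CPT1B only library 2 stood apart from the control. Coenzyme A synthesis genes had a median of 0.26 (0.25 by library 1 alone, 0.11 by library 2 alone), 5 of 7 above and 1 below, with PPCS at 9.81 and 11.7 FPKM against 5.55, the kinase PANK3 at 18.5 and 16.4 against 9.76 and PANK1 at 1.97 and 1.43 against 3.03. Of all 8 lists, 0 genes passed limma's threshold after adjustment over all genes, and the named ones were taken by size within each list.

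**Figure D4:**
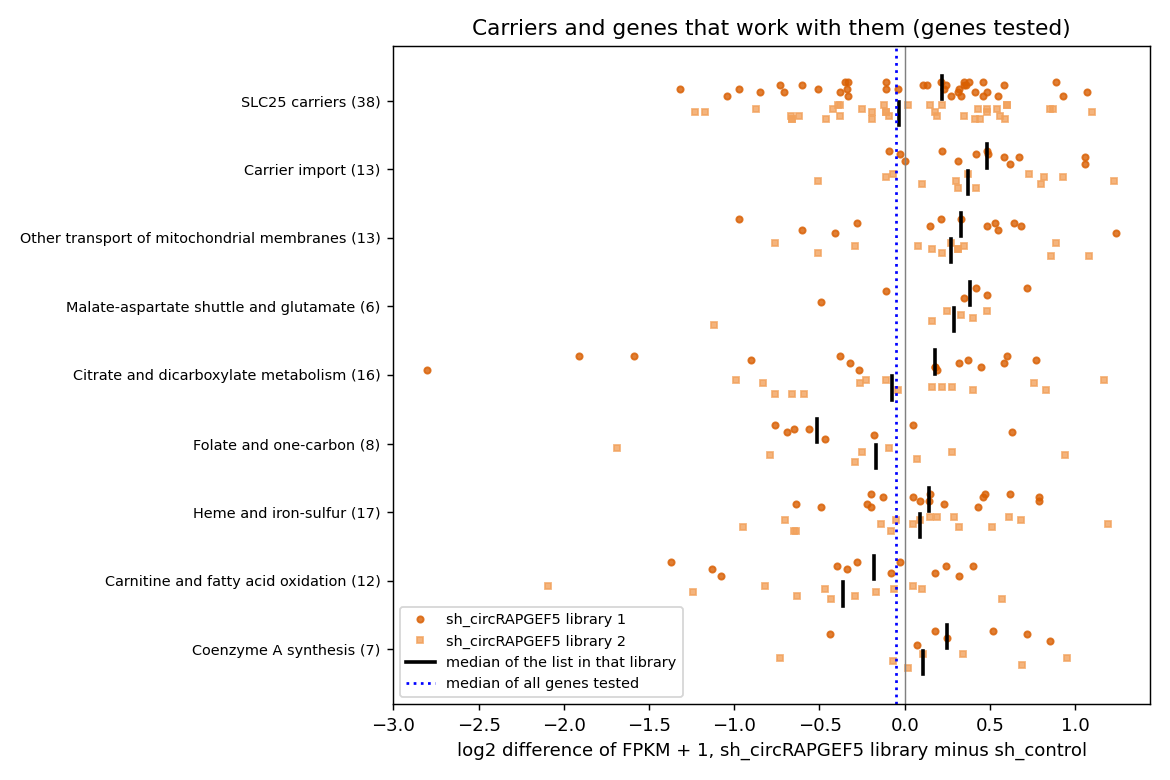
Log2 difference of FPKM + 1 from the sh_control library (horizontal axis) for the tested carriers and the tested genes of 8 lists, with the number tested in brackets. The circles are genes in sh_circRAPGEF5 library 1, the squares the same genes in library 2, black bars the medians of a list in that library, and the dotted line the median of all genes tested, -0.05. The import list has medians of 0.48 and 0.37, and the folate list -0.51 and -0.17, while the carriers spread on both sides of 0.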

How the data were processed

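Libraries were made with a stranded mRNA kit from total RNA, per the labels' protocols. The authors deposited FPKM for 15625 genes in 3 libraries. Trimmomatic, HISAT2 and GRCh38.p13 were named, per the submitters' processing notes. No version, counter, strand setting or gene annotation is given in the sources used here, and without the strand setting reads of overlapping genes on opposite strands cannot be told apart. Pathway names (other text) were deposited by the authors with the table. From the FPKM, log2(FPKM + 1) was computed, genes with a mean of at least 1 FPKM were kept (11216), and limma 3.58.1 (R 4.3.3), with a trend of variance on mean, compared 2 knockdown libraries with 1 control, leaving 1 residual degree of freedom and 10.92 prior ones. This step was tested on simulated data that gave control and knockdown the same spread. There, few of the smaller changes were called and more calls were false than the threshold allows. Adjusted p-values from this design may therefore run small, and a control that varies differently was not simulated.

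Whole reads were the smallest that give the FPKM ratios between libraries, within a relative tolerance of 1e-09, in 100% of genes; a gene's true reads may be a multiple of them. Positions and overlaps came from GENCODE 29 (GRCh38, 46 of 47 rows with a position; exons of 21 overlap another gene's) and promoters from RefSeq (GRCh38.p14). The members, role groups, partner lists and tests were chosen with earlier results of these data known. Full statistics were given for the 8 carriers farthest above and the 8 farthest below the control by the nearer knockdown library, with values for up to 3 genes of each partner list; a few of these items are counted but not reported here by name. The alternatives changed the pseudocount (to 0.1 or 5), the filter (to none or to a mean of 5 FPKM), the scaling (median-ratio, quantile) and limma itself (no trend, robust fitting, or a prior of 5 degrees of freedom). Each knockdown library was also left out in turn.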

Additional observations from a re-analysis of the deposited data

How the results depend on the processing

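No paired analysis was possible because the control is 1 library without a number. No carrier was called under any of the 9 alternatives with a test (smallest adjusted p 0.458 to 0.924). The 8 carriers farthest above and the 8 farthest below the control kept their direction with median-ratio rescaling and quantile normalization. The other alternatives could not turn it, because these carriers were chosen for lying on the same side in both libraries. Carriers below the control in both libraries were 7 with a mean of at least 5 FPKM, where 29 were tested. With a single knockdown library only that library had to lie below, a looser rule that cannot lower the count, and 19 or 16 did. Carriers at least 1.5-fold above the control were 3 with a pseudocount of 0.1, median-ratio rescaling or quantile normalization, and 0 with a pseudocount of 5. They were 6 or 3 with a single knockdown library, by the same looser rule. Those 1.5-fold below were 2 with a pseudocount of 5, a mean of at least 5 FPKM or quantile normalization. In the main setting the medians not given above were -0.093 (adenine nucleotide), 0.135 (cofactor), 0.019 (iron) and -0.113 (uncoupling-like). The spread was 0.004 for iron and 0.01 for uncoupling-like, so small moves passed it there. Medians that moved by more than the spread of the knockdown libraries were as follows, and the cause was not tested. With a mean of at least 5 FPKM they were 0.266 (all carriers), 0.119 (adenine nucleotide), 0.433 (cofactor), 0.534 (uncoupling-like, 1 gene left) and 0.396 (other membrane transport). With quantile normalization they were 0.114 (adenine nucleotide), 0.352 (cofactor), 0.027 (iron), 0.105 (uncoupling-like), 0.346 (import), 0.223 (malate-aspartate) and 0.084 (heme). Median-ratio rescaling gave 0.104 (iron), -0.044 (uncoupling-like), 0.526 (import), 0.370 (other membrane transport), 0.437 (malate-aspartate) and 0.132 (heme). A pseudocount of 5 gave 0.302 (amino acid), 0.030 (iron), -0.057 (uncoupling-like), 0.162 (other membrane transport) and 0.113 (coenzyme A), and one of 0.1 gave 0.014 (iron), -0.145 (uncoupling-like) and 0.376 (other membrane transport). With no filter they were 0.348 (amino acid) and 0.254 (malate-aspartate). With a single knockdown library the medians ranged from -0.037 to 0.220 (all carriers), 0.016 to 0.272 (adenine nucleotide), 0.316 to 0.433 (amino acid), -0.073 to 0.181 (citrate), 0.090 to 0.142 (heme) and 0.106 to 0.254 (coenzyme A). They ranged more widely, from -0.506 to 0.478, for the di- and tricarboxylate group and from -0.436 to 0.267 for the unassigned group. These 2 groups stayed within the spread only because it is taken from the same single-library medians. Depth limits the 9 carriers below 1 FPKM most, some of which rest on 0 or 1 read.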
